A study of Rattus norvegicus with 2 samples.

Results

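The regions described are the Creb3l1 peaks on rat chromosomes 10 and 12, in the coordinates of the genome build rn6. A peak is a stretch of the genome where fragments recovered by chromatin immunoprecipitation and sequencing (ChIP-seq) exceed the background seen in input DNA, and its summit is the base with the most fragments. All peaks on the 2 chromosomes were taken, 246 of the 2063 in the list (11.9%), with 169 on chromosome 10 and 77 on chromosome 12. The chromosomes were chosen by their measured number of peaks per Mb, the highest of all autosomes. That density is therefore given as a description with no test. Chromosome 2, the autosome with the fewest peaks per Mb, was set beside them and held 114 peaks.

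The tissue was hypothalamus enriched for magnocellular neurones (MCNs), punched from the supraoptic and paraventricular nuclei of male Sprague Dawley rats after 72 h of water deprivation (WD). Tissue of 9 rats was pooled into 1 Creb3l1 ChIP library and 1 input library, the latter being the same kind of chromatin without antibody. No unstimulated animals were among these samples, so WD is shared by everything described and its effect cannot be seen here. The punches hold other cells of the nuclei besides MCNs, and the peaks cannot be assigned to a cell type. There were no replicates, so the intervals below cover counting error only, and no difference between rats or immunoprecipitations is measured.

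Creb3l1 is a transcription factor that is made as a membrane protein of the endoplasmic reticulum (ER). It is released by cleavage when the secretory load of a cell rises, and its freed part enters the nucleus and binds DNA. In MCNs, which make and secrete vasopressin and oxytocin, it is known as a regulator of the vasopressin gene. Genes and sequences at the positions below were not analysed here.

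The 169 peaks of chromosome 10 amounted to 1.51 per Mb (95% exact Poisson interval 1.29 to 1.75) and the 77 of chromosome 12 to 1.48 per Mb (1.17 to 1.86). The length used for a chromosome was the position of its last summit. The ratio of chromosome 10 to chromosome 12 was 1.01, with an exact interval of 0.771 to 1.35, so these data do not order them. Chromosome 2 had 0.443 per Mb (0.365 to 0.532). Chromosome 10 was 3.40 times as dense as chromosome 2 (2.67 to 4.36), and chromosome 12 was 3.35 times as dense (2.48 to 4.52). Just outside the choice, the next, chromosome 1, had 1.18 per Mb (1.05 to 1.31), an interval that meets those of both chromosomes 10 and 12. Chromosome 7 followed with 1.15 per Mb (0.981 to 1.34), which also meets both. At the low end, chromosome 14 stood next to chromosome 2 with 0.459 per Mb (0.344 to 0.601).

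Neighbouring peaks are not independent counts, since 1 bound stretch can be called as several peaks. Peaks less than 300 bp apart were therefore also joined into regions. Joining does not remove clumping over longer distances, described below, so the intervals of regions also treat dependent counts as independent. Chromosome 10 then held 144 regions (1.28 per Mb) and chromosome 12 held 62 (1.20 per Mb), against 94 on chromosome 2 (0.365 per Mb). The ratios to chromosome 2 were 3.52 (2.69 to 4.61) and 3.28 (2.34 to 4.56). Both chromosomes kept the first and second place among the 20 autosomes. Chromosome 1 came next with 0.989 regions per Mb (0.876 to 1.11). That interval meets those of chromosome 10 (1.08 to 1.51) and chromosome 12 (0.916 to 1.53), so these places are not resolved. Chromosomes 10 and 12 made up 6.39% of the summed autosomal length and held 12.1% of the autosomal peaks, whereas chromosome 2 made up 10.0% of the length and held 5.59% of the peaks.

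**Figure D1:**
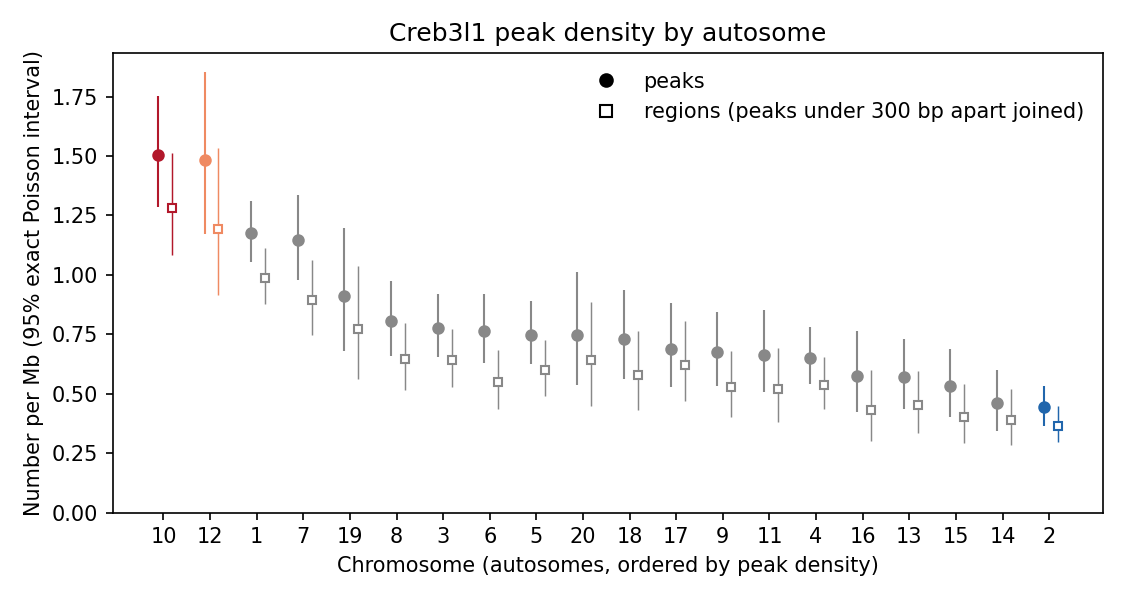
Peaks per Mb (filled circles) and joined regions per Mb (open squares) on each of the 20 autosomes, ordered by peak density, with 95% exact Poisson intervals as bars. Chromosomes 10 (1.51 peaks per Mb) and 12 (1.48) stand at the left and chromosome 2 (0.443) at the right end.

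Summits were next counted in fixed bins of 5 Mb from the start of each chromosome, up to the bin with its last summit. Any stretch beyond that bin was not counted, so the last bin could not be empty. The lengths used above end at 112.2 Mb, 51.9 Mb and 257.6 Mb on chromosomes 10, 12 and 2. The last bin of each was therefore covered only in part but counted as a full bin. Peaks were spread unevenly within both dense chromosomes. Chromosome 10 had 23 bins with a mean of 7.35 peaks and a median of 5. Near its start, the bins from 0 to 5 Mb and from 5 to 10 Mb held 4 and 2 peaks, and those from 10 to 15 Mb and from 15 to 20 Mb held 15 and 10. The count then fell to 2 in each of the bins from 20 to 25 Mb and from 25 to 30 Mb and was 5 from 30 to 35 Mb. It reached 12 from 35 to 40 Mb, followed by 4 and 8 in the bins up to 50 Mb. The densest bins here thus lay from 10 to 20 Mb and from 35 to 40 Mb, with a sparser stretch between them.

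All 3 empty bins of chromosome 10 lay beyond 50 Mb. The bin from 50 to 55 Mb was empty, and the next, from 55 to 60 Mb, held 14 peaks. Bins of 8, 5 and 13 peaks followed up to 75 Mb, and the bin from 75 to 80 Mb was empty. From 80 to 95 Mb the bins held 8, 20 and 16 peaks, and the third empty bin lay from 95 to 100 Mb. The last bins held 5, 11 and 5 peaks. Each of the 3 empty bins was thus next to a bin with at least 13 peaks. A count of 0 allows a mean of up to 3.69 peaks in a bin of this size (exact Poisson), below the chromosome's mean of 7.35.

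The densest bin of chromosome 10 was that from 85 to 90 Mb with 20 peaks (exact Poisson interval 12.2 to 30.9), or 11.8% of the chromosome's peaks. It was followed by the bin from 90 to 95 Mb with 16 (9.15 to 26.0) and that from 10 to 15 Mb with 15 (8.40 to 24.7). The order of these 3 is not resolved by their intervals. In joined regions they held 18, 13 and 12, so close groups of peaks did not make up these counts. Together the 3 bins held 51 peaks (30.2%). The intervals of 4 bins lay above the chromosome's mean, the fourth being that from 55 to 60 Mb. Those of 6 bins lay below it, namely the 3 empty bins and the 3 bins with 2 peaks.

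On chromosome 12, none of the 11 bins was empty, which with so few bins still allows a share of empty bins of up to 25.9% (95% Wilson interval). Its mean was 7 peaks per bin and its median 7, close to the mean of chromosome 10. The 3 densest bins adjoined each other, with 12 peaks from 10 to 15 Mb (6.20 to 21.0), 13 from 15 to 20 Mb (6.92 to 22.2) and 16 from 20 to 25 Mb (9.15 to 26.0). They held 41 of the 77 peaks (53.2%), or 10, 10 and 12 joined regions. Before this stretch the bins held 4 and 2 peaks. After it came bins of 7, 3 and 8 peaks, then 1 from 40 to 45 Mb, 9 from 45 to 50 Mb and 2 in the last bin. Only the bin from 20 to 25 Mb had an interval above the mean of 7, and only that from 40 to 45 Mb, with 1 peak (0.0253 to 5.57), had one below it.

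The densest bin of chromosome 2, from 185 to 190 Mb, held 23 peaks (14.6 to 34.5) in 19 joined regions, which overlaps the interval of the densest bin of chromosome 10. The order of these counts depended on where the bins began. With bins starting at 2.5 Mb, the densest held 17 peaks on chromosome 10, 18 on chromosome 12 and 16 on chromosome 2. The bin from 195 to 200 Mb of chromosome 2, named after its value was seen, held 15 peaks, and these 2 bins together held 38 of the 114 peaks (33.3%). The bin between them was empty. Its mean over all bins was 2.19 peaks, which restates the low density for which it was chosen.

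Empty bins numbered 21 of 52 on chromosome 2 (40.4%, 95% Wilson interval 28.2 to 53.9%) and 3 of 23 on chromosome 10 (13%, 4.54 to 32.1%), and these intervals overlap. Counts of empty and sparse bins also depend on the density that chose the chromosomes, and they leave out any bin beyond the last summit. Bins with at most 2 peaks numbered 35 on chromosome 2, 6 on chromosome 10 and 3 on chromosome 12. Bins with 10 or more peaks numbered 2, 8 and 3, in the same order. To collect at least 50% of the peaks, 6 of the 52 bins of chromosome 2 were needed (11.5%), 6 of the 23 bins of chromosome 10 (26.1%) and 3 of the 11 bins of chromosome 12 (27.3%). Such a share is smaller where the mean count per bin is lower, even in a random scatter. It thus also depends in part on the density that chose the chromosomes. The variance of the bin counts was 4.36 times their mean on chromosome 10, 3.69 times on chromosome 12 and 6.91 times on chromosome 2, where an even random scatter gives 1. In joined regions these values were 4.01, 2.67 and 5.66. Peaks were clumped on all 3 chromosomes by this measure, and assembly gaps and mappable sequence, which also vary along a chromosome, were not tested.

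**Figure D2:**
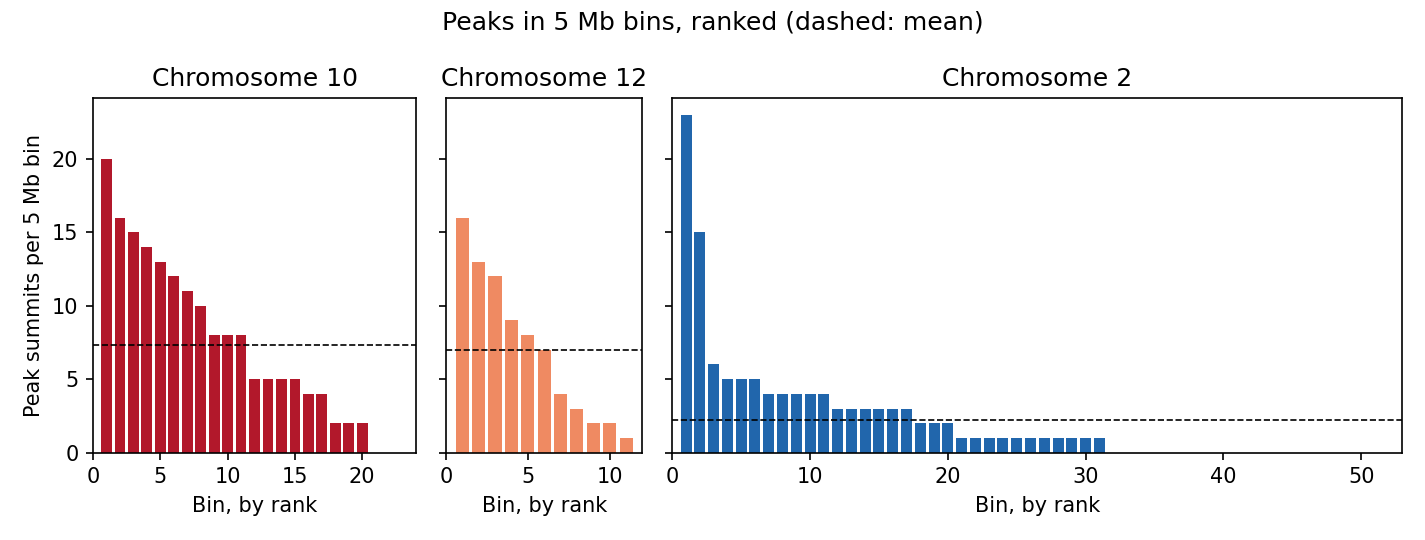
Peak summits in each 5 Mb bin of chromosomes 10, 12 and 2, with bins ranked from the fullest to the emptiest and the dashed line at the mean (7.35, 7 and 2.19 peaks). Chromosomes 10 and 12 decline gradually from 20 and 16 peaks, whereas chromosome 2 drops from 23 and 15 to 6 and has 21 empty bins. These shapes depend in part on the densities that chose the chromosomes.

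The distances between neighbouring summits describe the spread at a finer scale. The median distance was 222 kb on chromosome 10 (95% interval of the median 158 to 344 kb), 154 kb on chromosome 12 (71.3 to 355 kb) and 369 kb on chromosome 2 (159 to 876 kb). These intervals overlap. The upper quartile was 690 kb, 637 kb and 2373 kb. In joined regions the medians were 343 kb, 336 kb and 856 kb. Mean distances were 658 kb, 681 kb and 2255 kb. The lower quartile between peaks did not follow that order, at 60.9 kb on chromosome 10, 9.78 kb on chromosome 12 and 20.9 kb on chromosome 2. The longer median, upper quartile and mean of chromosome 2 restate the densities that chose the chromosomes.

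The gaps from the end of a peak to the start of the next were sorted by size. Gaps under 300 bp made up 25 of 168 on chromosome 10 (14.9%, 95% Wilson interval 10.3 to 21.0%), 15 of 76 on chromosome 12 (19.7%, 12.3 to 30%) and 20 of 113 on chromosome 2 (17.7%, 11.8 to 25.8%). Few gaps on any of them lay between 300 bp and 10 kb, 4 on chromosome 10, 4 on chromosome 12 and 7 on chromosome 2. The range from 100 kb to 1 Mb held 84 gaps of chromosome 10 (50.0%, 42.5 to 57.5%), 28 of chromosome 12 (36.8%, 26.9 to 48.1%) and 27 of chromosome 2 (23.9%, 17.0 to 32.5%). Gaps of 5 Mb or more numbered 4 on chromosome 10 (2.38%, 0.930 to 5.96%), 1 on chromosome 12 (1.32%, 0.233 to 7.08%) and 19 on chromosome 2 (16.8%, 11 to 24.8%). The shares of the shortest gaps had overlapping intervals. The shares of long gaps follow from the densities that chose the chromosomes and are given as a description.

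The longest stretch of chromosome 10 without a summit ran from 20591119 to 29029525 and spanned 8.44 Mb. Its bins each held 2 peaks, so it left no bin of the fixed grid empty. The next ran from 47453794 to 55275302 (7.82 Mb) and from 94696386 to 102200691 (7.5 Mb), around the empty bins at 50 and 95 Mb. On chromosome 12, the longest ran from 30501909 to 36991350 (6.49 Mb), followed by those from 6342408 to 11176106 (4.83 Mb) and from 25639394 to 29952247 (4.31 Mb). The longest on chromosome 2 spanned 17.4 Mb. The first and last summits lay at 1685822 and 112197721 on chromosome 10 and at 133589 and 51878157 on chromosome 12.

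**Figure D3:**
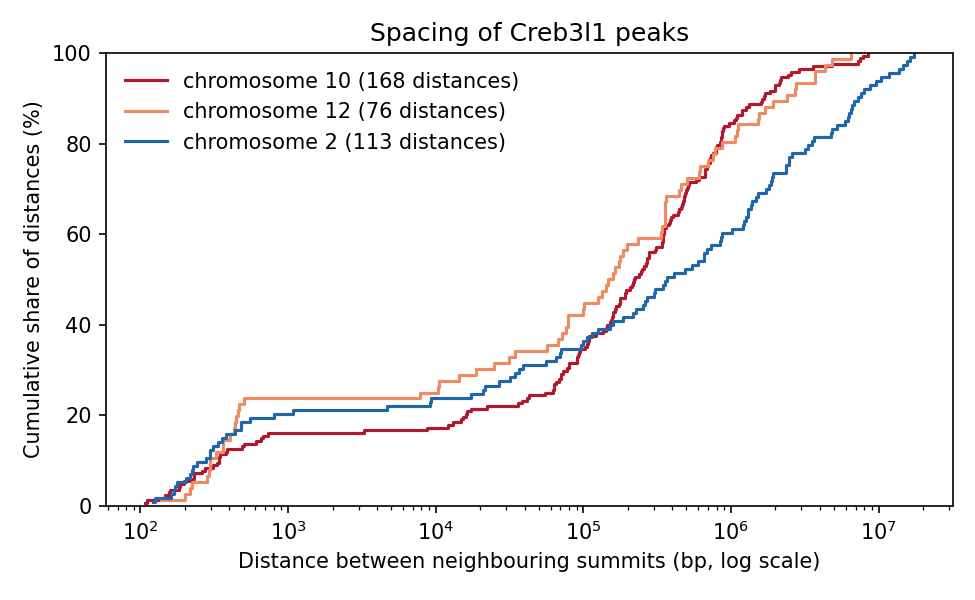
Cumulative share of the distances between neighbouring summits (bp, log axis) for chromosome 10 (168 distances), chromosome 12 (76) and chromosome 2 (113). The curve of chromosome 2 falls behind the others above about 100 kb, with upper quartiles of 690, 637 and 2373 kb.

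Peaks with another peak less than 300 bp away numbered 47 of 169 on chromosome 10 (27.8%, 21.6 to 35%) and 27 of 77 on chromosome 12 (35.1%, 25.3 to 46.2%), against 33.9% of all 2063 peaks, a share inside both intervals. Chromosome 2 had 33 (28.9%, 21.4 to 37.9%). When only peaks of q-value 1e-05 or lower were kept (the p-value corrected for the number of positions tested), these shares were 13.1%, 13.6% and 15.5%. On chromosomes 10 and 12 the grouped peaks formed 34 regions, 28 of 2 peaks and 6 of 3 peaks, and none of 4. Chromosome 2 had 1 region of 4. The absence depends on the limit of 300 bp. On chromosome 12, pairs from 12638444 to 12638876 and from 12639187 to 12639559 lay side by side, just too far apart to be joined. In the 25 neighbouring pairs of chromosome 10 with a gap under 300 bp, the summits were 107 to 729 bp apart with a median of 260 bp. In the 15 of chromosome 12 they were 138 to 461 bp apart with a median of 296 bp, and the median over all 386 such pairs in the list was 240.5 bp.

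The 3 regions with 3 peaks on chromosome 10 showed different orders of height. From 71054161 to 71054895 the peaks had 17, 31 and 31 fragments at the summit, so the latter pair was highest. From 94461055 to 94462181 they had 48, 27 and 18 fragments, falling from the first to the last. From 72950799 to 72951337 they had 28, 18 and 23, the middle peak being the lowest. On chromosome 12, the region from 22138381 to 22139091 had 26, 38 and 16 fragments, and that from 38303418 to 38304303 had 18, 41 and 19, with the highest peak in the middle of both. The third, from 18516668 to 18517438, had 16, 18 and 32, with the highest peak last.

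Chaining joined regions whose summits lay at most 100 kb apart, a distance chosen after the data were seen, put 57 of the 144 regions of chromosome 10 into chains (39.6%), 30 of the 62 of chromosome 12 (48.4%) and 37 of the 94 of chromosome 2 (39.4%). The largest chains of chromosome 10 had 4 regions. They ran from summit 94407176 to summit 94532702, with folds of 5.26 to 9.61, and from 36323615 to 36422914, with folds of 4.59 to 6.42. No chain on chromosome 12 had more than 3 regions, and none on any of the 3 chromosomes had 5.

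The heights of the peaks were not part of the choice of chromosomes. The fold enrichment of a peak is its ChIP pileup at the summit over the local background, with 1 added to both. On chromosome 10 the fold ranged from 2.92 to 13.4 with quartiles of 4.97, 5.85 and 7.19. On chromosome 12 it ranged from 3.25 to 12.5 with quartiles of 4.79, 5.67 and 7, and on chromosome 2 from 2.88 to 14.2 with quartiles of 4.67, 5.56 and 6.71. The median over the whole list was 5.61. The 95% intervals of the medians, 5.55 to 6.17, 5.26 to 6.13 and 5.26 to 6.03, overlap. No difference in median fold between the 3 chromosomes was resolved by this list.

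The depth behind a peak was recovered as whole fragments from the fold and the p-value. A summit had 14 to 54 fragments on chromosome 10 with a median of 23, 14 to 42 on chromosome 12 with a median of 21 and 15 to 48 on chromosome 2 with a median of 23. The precision for 1 peak is poor at this depth. A summit of 23 fragments at the genome-wide background of 2.04 had a fold of 7, with an exact Poisson interval of 4.56 to 10.3, and 21 fragments gave 6.42 (4.10 to 9.64). These fold intervals, and those of single peaks below, come from the ChIP fragments alone with the background held fixed. Median widths were 128 bp, 112 bp and 124 bp on chromosomes 10, 12 and 2, against 113 bp in the list. A width under 200 bp was found for 74.6% of the peaks on chromosome 10 and 80.5% on chromosome 12, against 77.2% overall.

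The q-value was 1e-05 or lower for 107 peaks on chromosome 10 (63.3%, 55.8 to 70.2%) and 44 on chromosome 12 (57.1%, 46.0 to 67.6%). The share over the list was 59.7%, inside both intervals, and that of chromosome 2 was 62.3%. A fold of at least 5 was found for 124 peaks on chromosome 10 (73.4%, 66.2 to 79.5%) and 53 on chromosome 12 (68.8%, 57.8 to 78.1%), against 66.9% of all peaks. A fold above 10 was found for 9 and 3 peaks, together 4.88% (2.81 to 8.33%) against 4.70%. The lowest background, the genome-wide mean, was the one used for 27.8% of peaks on chromosome 10 (21.6 to 35%) and 37.7% on chromosome 12 (27.7 to 48.8%), against 32.3%. None of these shares lay apart from that of the list by more than its interval.

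**Figure D4:**
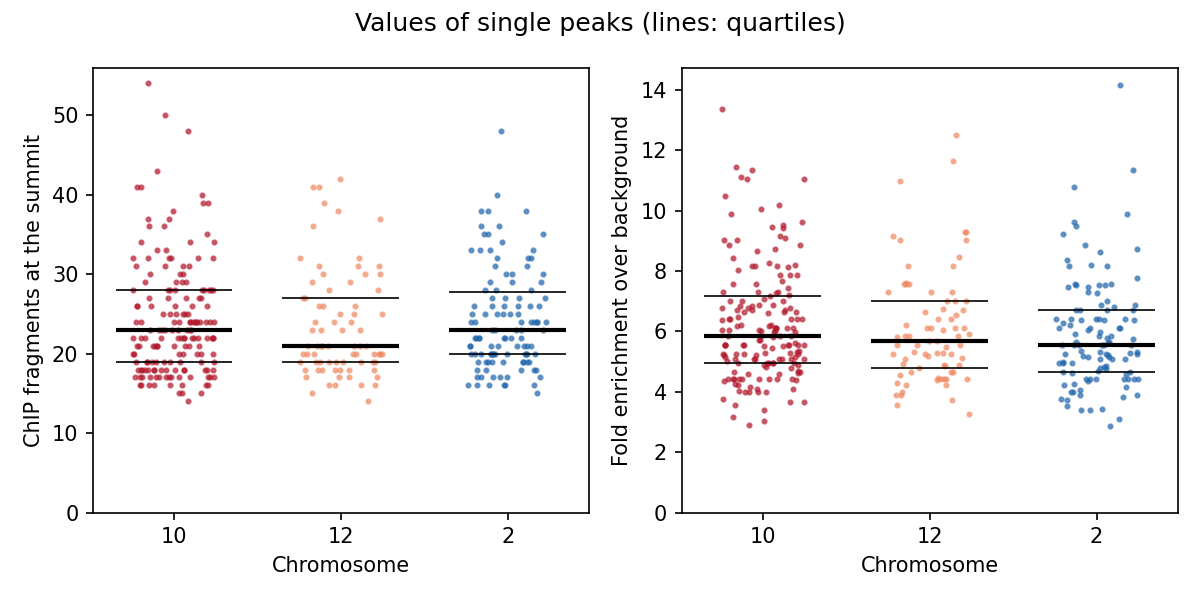
ChIP fragments at the summit (left) and fold enrichment (right) of every peak on chromosomes 10, 12 and 2, 1 point per peak, with the median as a thick line and the quartiles as thin lines. The medians of 23, 21 and 23 fragments and of 5.85, 5.67 and 5.56 fold lie close together, and the points cover a like range on the 3 chromosomes.

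Within each dense chromosome, peaks of full bins were compared with those of sparser bins. On chromosome 10, the 111 peaks in bins of 10 or more had a median fold of 6 (5.55 to 6.42), and the 58 in other bins had 5.54 (5.10 to 6.13). On chromosome 12, the 41 in such bins had 6.13 (5.19 to 7) and the other 36 had 5.55 (5.10 to 6.03). The intervals overlap on both. A close neighbour was present for 22.5% (15.7 to 31.1%) of peaks in the full bins of chromosome 10 and 37.9% (26.6 to 50.8%) elsewhere, and on chromosome 12 for 39.0% (25.7 to 54.3%) and 30.6% (18 to 46.9%). The direction differed between the chromosomes and the intervals overlapped. Overlap does not show that the shares are equal, and the difference was not tested, so none in close neighbours is claimed.

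The highest peak of chromosome 10 lay from 84915147 to 84916186. Its summit had 54 fragments where the background was 2.64, a fold of 13.4 (10.1 to 17.3), and with 1040 bp it was also the widest on the chromosome. It had a close neighbour with 18 fragments and lay in the bin from 80 to 85 Mb, next to the densest. The second, from 65805432 to 65805840, had 41 fragments and a fold of 11.5 (8.31 to 15.4), and no other peak within 158 kb. The third, from 56524332 to 56524464, had 38 fragments and a fold of 11.4 (8.13 to 15.5) and lay in the bin that follows an empty one. The fourth, from 29029478 to 29029643, had 39 fragments and a fold of 11.1 (7.98 to 15.1). It was the first peak after the longest stretch without a summit. A pair with 37 fragments and a fold of 11.1 (7.89 to 15.1) shared the fifth place, from 14247910 to 14248203 and from 34975546 to 34975803. Of the 6 peaks, 2 lay in bins with 10 or more peaks, which held 65.7% of all peaks of the chromosome, and none lay in the densest bin.

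On chromosome 12, the highest peak lay from 12638760 to 12638876, where 42 fragments stood against the genome-wide value of 2.04, a fold of 12.5 (9.11 to 16.8). It had a close neighbour with 20 fragments. The second, from 2626369 to 2626659, had 39 fragments and a fold of 11.6 (8.37 to 15.8) and lay outside the dense stretch, with no other peak within 456 kb. The third, from 22138680 to 22138937, had 38 fragments and a fold of 11 (7.86 to 14.9) and was the middle peak of its region of 3. The next pair had 41 fragments and, at a background of 3, a fold of 9.29 (6.74 to 12.5), from 18531195 to 18531929 and from 38303644 to 38304118. The former, 735 bp long, was the widest of the chromosome. The order at the top is not resolved, since the upper limits of 44 other peaks on chromosome 10 and 31 on chromosome 12 reached the lower limit of the highest.

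A ranking by fragments gave other peaks beside the first. On chromosome 10, the peak from 109966855 to 109966977 had 50 fragments and, at a background of 4, a fold of 9.02, behind 17 others of the chromosome. The peak from 94461055 to 94461307 likewise had 48 fragments at a background of 4, a fold of 8.67. Both were named after their values were seen. At the other end, 4 peaks had a q-value above 0.01, 3 on chromosome 10 and 1 on chromosome 12. A q-value of at most 0.01 was thus found for 98.4% of the 246 peaks (95.9 to 99.4%), against 96.8% of the list. The lowest fold of chromosome 10, 2.92, was that of the peak from 86551904 to 86551979, in the densest bin, with 22 fragments over a background of 6. The lowest of chromosome 12, 3.25, was that from 6341954 to 6342125, with 21 fragments over a background of 5. Their numbers of fragments were near the medians of their chromosomes, and no peak there had a higher background.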

How the data were processed

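ChIP-seq libraries of pooled WD hypothalamus (1 Creb3l1 ChIP, 1 input) were made and sequenced by a commercial service. The authors' notes name Bowtie and MACS2 2.1.0, with rn6 as the build. Peaks were called once, on the pool, with the input as control. The deposited list gives start, end and summit of each peak, the fold ratio over background, and the −log10 p-value and −log10 q-value at the summit. The deposited score is 10 times the −log10 q-value without decimals and was not used. The largest q-value was 0.0397.

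Starts were raised by 1 so that positions count from 1, and bins used the summit counted from 0. Fold and p-value are functions of the same scaled ChIP pileup and background. Solving for both with a scale of 0.882 gave whole fragments (within 0.001) for 100% of peaks. For 3 peaks the background's steps decided between solutions. The procedure was run on values simulated with the same formulae, which checks the solving and not the formulae themselves. The recovered depth rests on the formulae of MACS2 and was not compared with reads. Intervals at 95% were Wilson for shares, exact Poisson for counts, exact conditional for density ratios and binomial order statistics for medians. Peaks of 1 library are not replicates, so no test was made. Overlap of intervals is given as a description and does not show that values are equal. Intervals cover counting error only, treat peaks as independent and are too narrow where peaks share a bound stretch or are clumped along a chromosome. Those of the fold of single peaks hold the background fixed. They leave out its counting error and are too narrow for that reason as well.

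The regions named by rule were the 3 densest bins of chromosomes 10 and 12 and the densest of chromosome 2, the empty bins of chromosomes 10 and 12, the 5 peaks of highest fold with ties, the regions with the most peaks, the 3 longest distances, and the first and last summits. Genes and motifs, which the rule provided for given an rn6 reference, were not analysed here. Chromosomes, bins and rules were chosen with earlier results of these data known. Alternatives covered threshold, joining, bin size and origin, chromosome length and neighbour distance. Python 3.11.15, numpy 2.4.6, pandas 2.3.3 and scipy 1.17.1 were used.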

Additional observations from a re-analysis of the deposited data

How the results depend on the processing

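Of 52 alternative values for 17 results, 41 stayed inside the 95% interval of the value reported and 11 moved. Both density ratios to chromosome 2 and all 3 median folds stayed inside under every alternative tried for them. With q-values of at most 1e-05 only, the share of peaks with a neighbour under 300 bp was 13.1% on chromosome 10, 13.6% on chromosome 12 and 15.5% on chromosome 2, and the median distance between summits was 350 kb, 362 kb and 1307 kb. A stricter threshold has fewer peaks, which lengthens distances by construction. With bins of 2 Mb, the densest held 5.33% of the peaks on chromosome 10 and 10.5% on chromosome 2, and empty bins made up 30.8% on chromosome 12 and 62.0% on chromosome 2. The absence of empty bins on chromosome 12 thus holds for 5 Mb bins. With bins of 10 Mb, the densest of chromosome 12 held 32.5%. Smaller bins hold less by construction. No paired analysis was possible because each group had a single library, and no replicate could be left out. The alternatives for genes and motifs were not run. Depth limits the order of single peaks and bins.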

Other observations

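Windows of 1 Mb that began at a summit, a choice made after the data were seen, placed the tightest accumulation of each chromosome more closely than the fixed bins. On chromosome 10, the fullest window held 9 peaks between the summits 84656625 and 85301336. It straddles the border at 85 Mb between the densest bin and the one before it, and it contains the highest peak of the chromosome. On chromosome 12, the fullest window held 10 peaks between 18516767 and 19329394. It contains the region of 3 peaks at 18516668 and the widest peak of the chromosome. On chromosome 2, the fullest window also held 10 peaks, between 187893158 and 188745647, inside its densest bin. The fullest windows of the dense chromosomes therefore held no more peaks than that of chromosome 2. Counted in joined regions, the fullest windows held 7, 7 and 9.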
